A study of Drosophila melanogaster with 2 samples.

Results

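The GATA factor genes of Drosophila melanogaster and u-shaped (ush), the gene of their zinc-finger cofactor, were examined for binding of Atonal in whole embryos. The genes were serpent (srp), GATAe, GATAd, pannier (pnr), grain (grn) and ush, 6 of the 13968 protein-coding genes on the chromosome arms. They were chosen by peaks of these same lists, so the peaks assigned to them, and their number, describe the choice and support nothing by themselves. A peak was assigned to a gene when its summit lay inside the gene or when the gene's annotated start was the nearest protein-coding start. This gave 8 of the 3009 peaks that passed the reproducibility threshold (the conservative list) and 257 of the 161563 peaks of the ranked list from which it was drawn. No peak was assigned to more than one of the genes.

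The data came from chromatin immunoprecipitation followed by sequencing (ChIP-seq) in embryos of the strain ato-GFP, aged 0 to 18 h. The flies carried a transgene for Atonal fused to eGFP, the precipitating antibody is described as anti-GFP, and chromatin had been sonicated to 200 to 800 bp. There was 1 group, with 2 biological replicates, and a control was not analysed here. Another label field names ato itself as the antibody, so whether untagged Atonal was also precipitated cannot be settled from the labels. The authors deposited peaks with a signal each, and no read counts, so the depth of either replicate is unknown and the scale of the signal is not given in these sources. All cells of the embryo were pooled, so fewer bound cells and less binding per cell cannot be told apart, and no cell type can be assigned to a peak. The irreproducible discovery rate (IDR) quoted for each ranked peak is the authors' value for how poorly its rank repeats between the replicates, and peaks passed at a rate of at most 0.01. Shares are given with 95% Wilson intervals, which cover the counting of peaks only. They count overlapping peaks separately, among them the 2 distal peaks of grn described below.

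As background, GATA factors are zinc-finger proteins that recognise DNA words built around GATA. Srp is required for blood cells, fat body and endoderm, GATAe acts in the endoderm and midgut, Pnr acts in the dorsal ectoderm, heart and dorsal thorax, and Grn is needed for organ shape and for motor axon guidance. Ush, a protein of the Friend-of-GATA family, binds GATA factors, and in the dorsal thorax it limits the activation of the proneural genes achaete and scute by Pnr. Atonal is itself a proneural basic helix-loop-helix factor and binds E-box words (CANNTG) as a dimer with Daughterless.

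The sequence under the summits shows what the peaks at these genes hold and lack. Each sequence below is the reference of dm6 from RefSeq, 50 bp to each side of a summit, printed 5′ to 3′ on the strand of the gene. Capitals mark GATAA or its complement TTATC and every CANNTG. The conservative peaks upstream of GATAe and pnr, the start peak and both distal peaks of grn, and the intronic peak of GATAd are shown, followed by a ranked peak in an intron of ush and one in an intron of srp, neither of them in the conservative list.
GATAe, chr3R:16004179-16004279, plus strand: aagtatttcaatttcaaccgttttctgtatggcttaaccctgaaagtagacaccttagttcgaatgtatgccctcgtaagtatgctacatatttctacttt
pnr, chr3R:16025884-16025984, plus strand: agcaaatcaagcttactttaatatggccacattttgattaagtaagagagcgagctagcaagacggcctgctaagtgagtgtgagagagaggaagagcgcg
grn start, chr3R:8181525-8181625, minus strand: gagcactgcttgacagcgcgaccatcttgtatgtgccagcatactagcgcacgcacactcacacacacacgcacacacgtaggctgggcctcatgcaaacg
grn distal, chr3R:8190999-8191099, minus strand: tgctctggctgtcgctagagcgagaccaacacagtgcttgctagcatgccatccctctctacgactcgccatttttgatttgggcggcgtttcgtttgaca
grn distal, chr3R:8191215-8191315, minus strand: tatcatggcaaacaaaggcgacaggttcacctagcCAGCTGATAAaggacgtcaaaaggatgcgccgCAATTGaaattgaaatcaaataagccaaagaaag
GATAd, chr2L:10334919-10335019, plus strand: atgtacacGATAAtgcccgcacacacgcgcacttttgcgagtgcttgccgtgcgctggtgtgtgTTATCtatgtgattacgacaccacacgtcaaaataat
ush, ranked list, chr2L:480288-480388, plus strand: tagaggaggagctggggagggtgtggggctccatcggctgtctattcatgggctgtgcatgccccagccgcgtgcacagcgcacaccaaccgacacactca
srp, ranked list, chr3R:15999766-15999866, plus strand: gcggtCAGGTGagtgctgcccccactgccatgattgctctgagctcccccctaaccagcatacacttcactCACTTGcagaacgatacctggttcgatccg
The windows of GATAe, pnr, the grn start and the ush intron carry no capitals. Those of GATAd and of the weaker distal grn peak hold GATA words, and the latter also holds E-boxes. Both conservative peaks of ush lie in a 5′ UTR exon and are described by position only.

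At least 1 conservative peak was assigned to 5 of the 6 genes. There were 3 at grn and 2 at ush, and GATAe, pnr and GATAd had 1 each. At srp 0 of 30 ranked peaks passed, which allows a share of up to 10% (3 counts of the total). By the same assignment 19.9% of all protein-coding genes had a conservative peak, and 18.8% had one nearest to their start, but the genes were chosen by this property and nothing is read from the difference. Of the 257 ranked peaks, 8 passed (3.11%, interval 1.59 to 6.02), beside 1.86% of all ranked peaks. In the pooled lists, which combine the replicates in another way, 5 of 261 ranked peaks at the genes passed (1.92%, interval 0.821 to 4.41), beside 2.02% of all.

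The conservative peaks at these genes were not among the strong ones of their list. Their median signal was 77.3, beside 88.6 over all 3009, and 6 of the 8 lay below that median. The strongest, upstream of GATAe, had a signal of 113.3 and ranked at 1026 of 3009, and the weakest, a distal grn peak, had 24.5 and ranked at 2916. Of the 8 summits, 3 lay within 500 bp of an annotated start of their gene (37.5%, interval 13.7 to 69.4), beside 81.5% of all conservative summits. The genes were chosen by peaks of this list, so nothing is read from the difference. The 3 summits near a start were at pnr, grn and ush. By the annotation, 5 of the 8 summits were intergenic.

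The ranked peaks as a whole gave a median signal of 21.9 at the 6 genes, with the middle 50% from 12.8 to 30.7. Over all ranked peaks the median was 17.7, with the middle 50% from 10.6 to 26.2. The median of the gene medians, over the 13497 genes with a ranked peak, was 19.4. The 6 genes did not share one level. The median was 17.3 at GATAe and 17.6 at pnr, near that of all ranked peaks and below that of the gene medians. It was 21.9 at grn, 22.3 at srp, 23.3 at ush and 26.5 at GATAd. These medians overlapped in their spread, since the peaks of ush alone ran from 5.04 to 94.4 and those of srp from 3.92 to 48.2. GATAd had the highest median from only 6 ranked peaks, of which 1 passed.

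**Figure D1:**
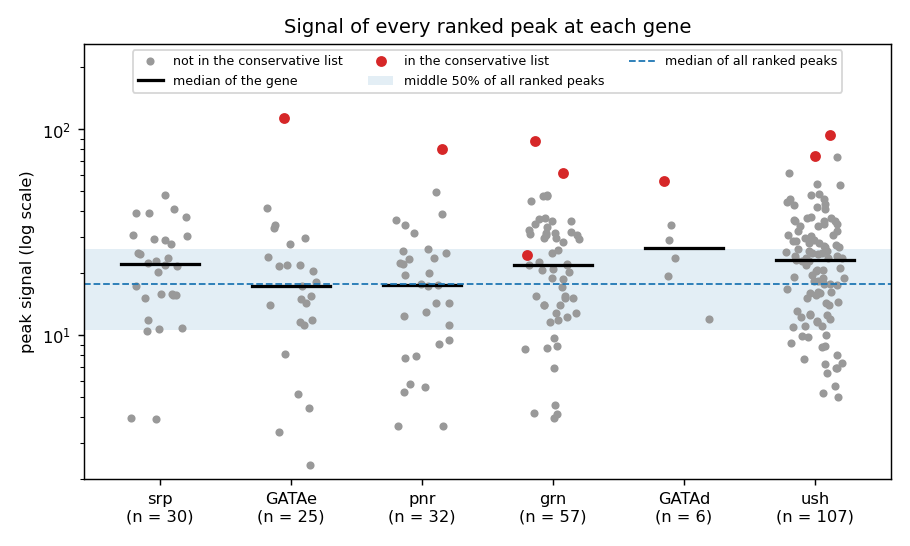
Signal of all 257 ranked peaks at the 6 genes (vertical axis, log scale), 1 point per peak, with the median of each gene as a bar, the median of all ranked peaks as a dashed line and their middle 50% as a band. The conservative peaks (red) lie at the top of the points of GATAe, pnr, GATAd and ush, while 1 grn peak passed at 24.5 and no srp peak passed.

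The GATA genes srp, GATAe and pnr lie in a row on the right arm of chromosome 3, all on the plus strand. The srp gene (FBgn0003507) spans chr3R:15986152-16004085, GATAe (FBgn0038391) begins 5019 bp further on and spans chr3R:16009105-16019133, and pnr (FBgn0003117) begins 6945 bp past GATAe and spans chr3R:16026079-16041796. This row held 2 conservative peaks, both with summits between genes and 21705 bp apart.

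The peak between srp and GATAe had its summit at position 16004229, 144 bp past the end of srp and 4876 bp upstream of the first GATAe start. The peak itself reached 25 bp into the srp gene. It was assigned to GATAe because the nearest srp start was 5140 bp away, so the assignment turned on a small difference in distance. Its signal was 71.1 in the ranked list of replicate 1 and 46.5 in that of replicate 2, it was in the thresholded list of each replicate alone, and its IDR of 0.000451 was the lowest at any of the 6 genes. The summit lay 92 bp from one end of the non-coding RNA gene lncRNA:CR42839, and 82 bp of the peak overlapped a fragment of the G5 transposable element. The part of that overlap in the signal was not tested. Elsewhere at GATAe, a gene of the midgut programme, the strongest peaks had signals of 41.6 (3766 bp upstream, in the non-coding RNA) and 34.5 (in an intron). Neither passed, and at both annotated GATAe starts the strongest peak within 500 bp had a signal of 29.8 or less.

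The pnr gene, whose product activates proneural genes in the thorax, had its conservative peak at a start. The summit at 16025934 lay 145 bp upstream of the first annotated start, between the genes, with a signal of 80.4. The replicates gave 31.3 and 43.2 and the IDR was 0.00304. The peak was in the thresholded list of replicate 1 alone and not in that of replicate 2, although its signal was the higher in replicate 2. The next peak, 3638 bp upstream, had 49.8 and did not pass (17.8 in replicate 1 and 18.8 in replicate 2). The start of the shorter pnr transcripts, at 16034586, had no peak above 34.2 within 500 bp.

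The srp gene, of the factor for blood and fat body, was the one of the 6 with no conservative peak assigned to it. Its 30 ranked peaks were spread over the gene, and the strongest, with 48.2, ranked at 5665 of 161563. That summit lay at 15993260, 826 bp past a start, in a 5′ UTR exon and in an exon of lncRNA:CR44133. The signal was 34.6 in replicate 1, where the peak passed in the list of that replicate alone, and no peak of replicate 2 overlapped it. The combined IDR was 0.0274. The srp peaks that followed were found in both replicates, with 41.1 combined (16.1 and 29.5) just past the start at 15994140, and 39.3 combined (21.0 and 20.8) in the intron shown among the sequences. Their IDR values were 0.177 and 0.100. Of its 4 annotated starts, the one at 15992434 had no ranked peak within 500 bp and the first, at 15986152, had none above 22.9.

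**Figure D2:**
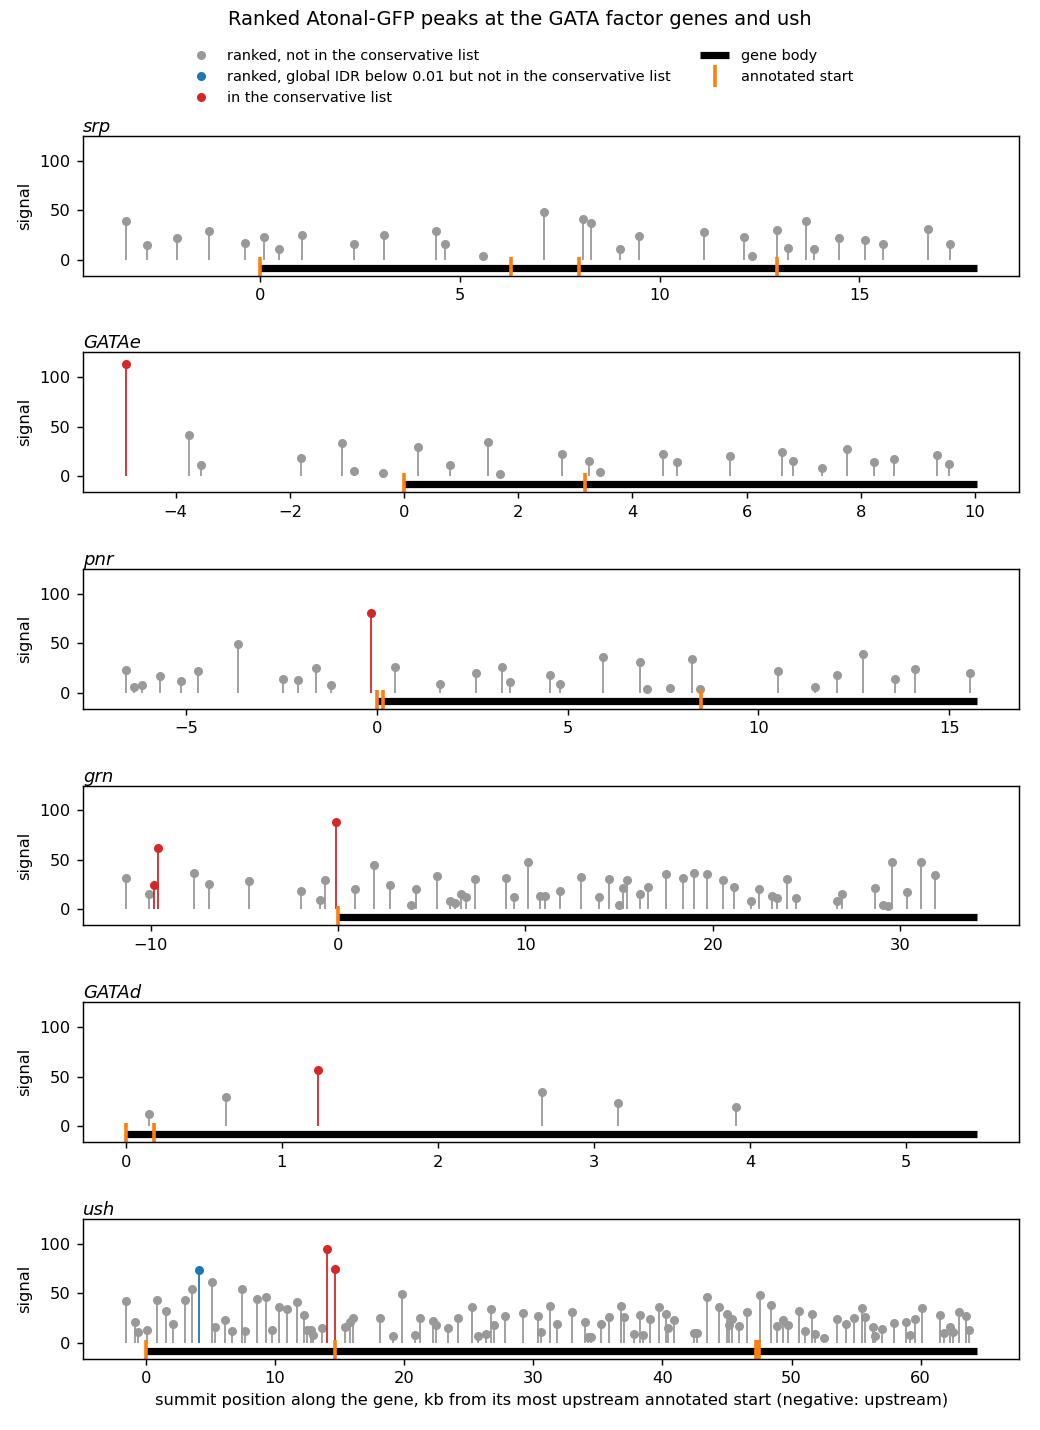
Summits of all ranked peaks along the 6 genes (horizontal axis, kb from the most upstream annotated start; vertical axis, signal), with the gene body as a black bar and annotated starts as orange ticks. Red points passed, and the blue point in ush has an IDR below 0.01 but is not in the conservative list. A red point sits within 500 bp of a start in each of pnr, grn and ush. The stronger ush point lies 569 bp upstream of its nearest start, and the rest lie upstream of GATAe and grn and inside GATAd. None lies in srp.

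The grn gene (FBgn0001138, chr3R:8147368-8181444, minus strand) had the most conservative peaks. The strongest, with 87.9, had its summit at 8181575, 131 bp upstream of the start shared by its 3 annotated transcripts. It was in the thresholded list of each replicate alone, with 55.9 in replicate 1 and 47.0 in replicate 2, and its IDR was 0.000655. The other two lay 9605 and 9821 bp upstream, with combined signals of 61.6 and 24.5. Their summits were 216 bp apart and the peaks shared 120 bp. In each replicate a single peak covered both, with 32.8 in replicate 1 and 33.8 in replicate 2, so they are 1 site as far as the separate replicates go, and neither was in a thresholded list of 1 replicate. Of the 57 ranked grn peaks, 47 lay more than 5000 bp from its start, and their median was 21.9. The strongest that did not pass had 47.9 and lay in a grn intron nearer to the start of Arl8, the gene of a lysosomal GTPase.

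GATAd (FBgn0032223, chr2L:10333734-10339185, plus strand) is the shortest of the 6 genes. Its conservative peak was in an intron, with the summit at 10334969, 1055 bp past the nearer start. The combined signal was 56.4, with 44.6 in replicate 1 and 27.4 in replicate 2, and it was in the thresholded list of replicate 1 alone. Its IDR of 0.0065 was the closest to the threshold among the 8. At its starts the strongest peaks within 500 bp had 11.96 and 29.2, and neither passed. The conservative peak was therefore the strongest of the gene, away from both starts, but it ranked only at 2735 of 3009 in its list.

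The ush gene (FBgn0003963, chr2L:476220-540560, plus strand) had 107 ranked peaks, more than 98.9% of all protein-coding genes, over 64.3 kb of gene. Per kb of the sequence assigned to it this was 1.62 peaks, beside 1.66 at GATAe, 1.41 at pnr, 1.32 at srp, 1.25 at grn and 0.911 at GATAd, so the density at ush was the second of the 6. Both conservative peaks lay around an internal start of the gene, at 490835, but only the weaker had its summit within 500 bp of it. The stronger, with 94.4, had its summit 569 bp upstream of that start at 490266, inside a 5′ UTR exon of a longer transcript. The replicates gave 39.6 and 55.2, the IDR was 0.00113, and the peak was in the thresholded list of each replicate. The weaker, with 74.3, had its summit 46 bp past the start and 615 bp from the first. It had 33.4 in replicate 1 and 41.9 in replicate 2, an IDR of 0.00264, and was in the thresholded list of replicate 1 alone. The non-coding gene lncRNA:CR46258 begins at the same position, so a peak at this start cannot be assigned to ush alone. At the most upstream ush start, 476220, the strongest peak within 500 bp had only 12.5, and at the paired starts 523466 and 523736 it had 48.0 and did not pass.

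A second gene lies inside ush. Cabut (cbt), which encodes a zinc-finger factor, occupies chr2L:476446-479688 on the opposite strand. Of the 107 ranked peaks at ush, 11 were nearest to the cbt start, with a median of 43.1, while the 83 nearest to a ush start had 23.8 and the 13 nearest to lwr, the gene of the SUMO-conjugating enzyme, had 19.7. The peaks nearest to cbt supplied 4 of the 10 strongest at ush. The strongest of these, at 480338, lay 650 bp upstream of the cbt start and had 73.8, with 31.8 in replicate 1 and 35.2 in replicate 2. Its IDR of 0.00419 was past the threshold, yet the peak was not in the conservative list, as was the case for 124 ranked peaks in all and for no other at the 6 genes. No source used here gives the reason. With it left out, no conservative peak was assigned to cbt.

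Around the threshold, the GATAd peak at 0.0065 and the distal grn peaks at 0.00432 and 0.00433 lay just inside. Just outside were a ush peak of 53.8 at 0.0106, a grn peak of 47.6 at 0.0127, ush peaks of 61.6 at 0.0148 and 48.9 at 0.0210, and the srp peak of 48.2 at 0.0274. The combined signal of the peaks outside exceeded that of the weaker distal grn peak inside. That grn peak had the same overlapping replicate peaks as its stronger neighbour, with 32.8 in replicate 1 and 33.8 in replicate 2. Why it passed at its low combined signal was not tested.

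The separate lists of the replicates differed in which of the genes they held. All 6 had a peak in the thresholded list of replicate 1, srp included, where 16.8% of all protein-coding genes had one. In the list of replicate 2 it was 3 of 6 (GATAe, grn and ush), beside 12.2% of all genes. The pooled list had peaks at GATAe, grn, GATAd and ush, 4 of 6, beside 21.4%. Of the 8 conservative peaks, 3 overlapped a peak of each replicate alone (37.5%, interval 13.7 to 69.4), beside 45.8% of all conservative peaks. Another 2, both distal at grn, overlapped neither (25%, interval 7.15 to 59.1), beside 25.3%. Those 2 share 1 peak in the ranked list of each replicate, so this share counts 1 site as 2 peaks. The remaining 3, at pnr, GATAd and ush, were in the list of replicate 1 and not in that of replicate 2. Both shares of the whole list lay inside the intervals for the 6 genes.

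Neither replicate had the higher signal at all 8 peaks. Replicate 1 was the higher at 3 of the 8 peaks (GATAe, the grn start and GATAd), and at 61.8% of the 2995 conservative peaks with a value in both lists, where the median ratio of replicate 1 to replicate 2 was 1.08. The 3 list memberships that replicate 2 lacked thus included 2 peaks, at pnr and at the ush start, with the higher signal in replicate 2. In the ranked list of replicate 2 the −log10 IDR was 0.0954 at pnr, 1.77 at the ush start and 0.640 at GATAd. All 3 were below 2, the value of a rate of 0.01. The lists of the single replicates were made separately, so their signals are set side by side for rank and not as a measured difference.

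**Figure D3:**
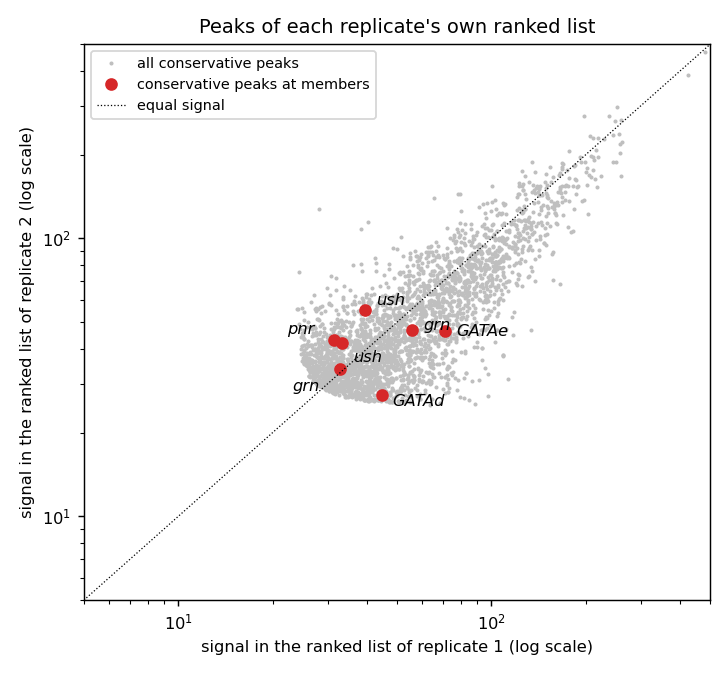
Signal of conservative peaks in the ranked list of replicate 1 (horizontal axis) and replicate 2 (vertical axis), both on log scales, with all conservative peaks in grey, those at the 6 genes in red and the line of equal signal dotted. The red points lie in the lower part of the grey cloud and on both sides of the line, and the 2 distal grn peaks share 1 point because 1 peak per replicate covers both.

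GATA words, through which the products of these genes bind DNA, were counted as GATAA on either strand within 50 bp of the summit. They were present in 2 of the 8 conservative peaks (25%, interval 7.15 to 59.1), beside 31.8% of all conservative peaks. With 100 bp to each side the count was 5 of 8 (62.5%, interval 30.6 to 86.3), beside 46.1% of all, so the position of the share relative to that of all peaks turned with the window. Windows of 50 bp to each side, placed 500 bp to each side, held GATAA at 2 and 3 of the 8. The shares of these flanks over all conservative peaks were 19.5% and 19.1%. The 50 bp window of GATAd held 2 matches and that of the weaker distal grn peak held 1. The summit of the covering peak in each replicate lay outside that grn window. On either strand, GATAA overlaps another word, TATCGATA, where that word is followed by A or preceded by T. Within 50 bp, TATCGATA was in 18.1% of all conservative windows and in none of the 8, a count that allows a share of up to 37.5%. Without GATAA that overlapped it, the shares within 50 bp were 2 of 8 and 26.1%. In the wider window the only GATAA of pnr, 79 bp from the summit, overlapped a TATCGATA. No such overlap was removed from the shares at 100 bp. Over the ranked peaks, 49 of 257 held GATAA (19.1%, interval 14.7 to 24.3), beside 15.5% of all ranked peaks. In both sets the share over all peaks lay inside the interval for the 6 genes.

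E-boxes, the words of Atonal and other basic helix-loop-helix factors, were counted in the same windows. CANNTG was within 50 bp of 1 of the 8 summits (12.5%, interval 2.24 to 47.1), beside 38.7% of all conservative peaks, which is inside that interval. With 100 bp to each side the count was 3 of 8 (37.5%, interval 13.7 to 69.4), beside 62% of all. Windows of 50 bp to each side placed 500 bp to each side held it at 5 and 4 of the 8, beside 39.5% and 38.9% of all. The one peak with E-boxes was the weaker distal grn peak, which held CAGCTG and CAATTG, with CAGCTG running into a GATAA as CAGCTGATAA. In chromosome coordinates the summit of the covering peak was at -141 bp from this summit in replicate 1 and -205 bp in replicate 2. Both were outside the window, so neither replicate alone places a summit at these words. CAGCTG was in 9.28% of all conservative windows. Among ranked peaks, 117 of 257 held CANNTG (45.5%, interval 39.5 to 51.6), beside 43.6% of all, also inside the interval. The srp intron peak shown among the sequences held CAGGTG and CACTTG. Of other words searched on both strands, the purine repeat GAGAGAG was in the pnr window and in no other of the 8, beside 2.56% of all. The early embryonic word CAGGTAG was in none, beside 0.433% of all.

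**Figure D4:**
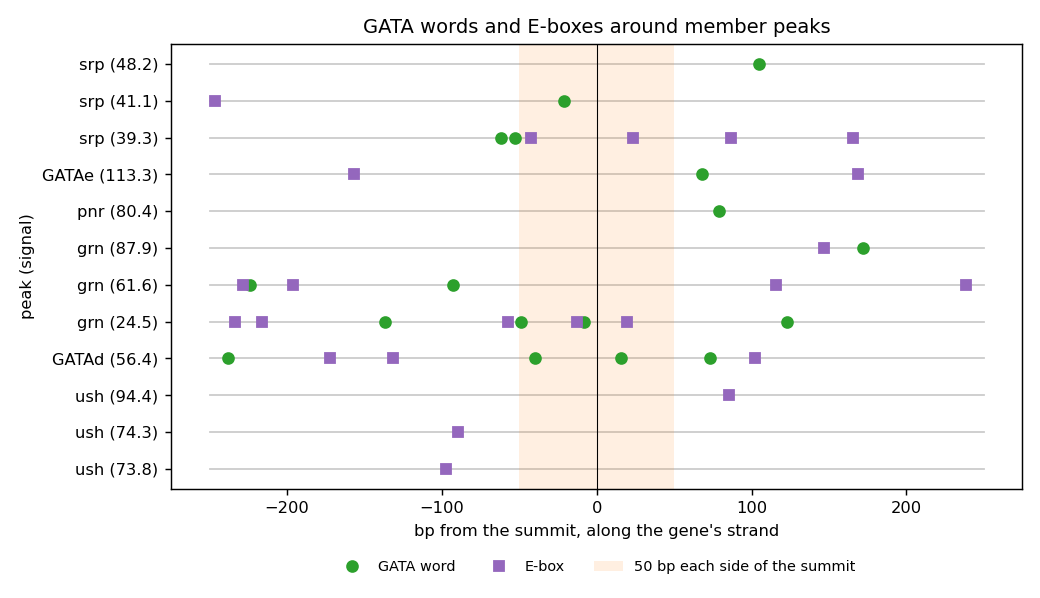
Positions of GATA words (GATAA on either strand, circles) and E-boxes (CANNTG, squares) around the summits of the 8 conservative peaks, the ush peak of 73.8 that is not in the conservative list and the 3 strongest srp peaks (horizontal axis, bp from the summit along the strand of the gene; rows, peaks with their signal). The shaded 50 bp to each side hold words at the weaker distal grn peak, at GATAd and at 2 srp peaks, and none at the other peaks drawn. A word on the border counts only where it lies wholly inside.

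The base composition of the windows varied. The GATAe window was 35.6% G and C, the lowest of the 8, and the grn start window was 57.4%, the highest, beside a median of 45.5% over all conservative peaks. The pnr window equalled that median at 45.5%, and those of ush were 46.5% and 54.5%.

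Genes known as partners, regulators or targets of the GATA factors were listed with earlier results in view, 34 in all, to see which of them had conservative peaks too. A conservative peak was assigned to 11 of 34 (32.4%, interval 19.1 to 49.2), beside 19.9% of all protein-coding genes. By nearest start only the count was also 11, beside 18.8% of all. The first of these shares lies just inside the interval and the second just outside. The list was made with earlier results in view, so nothing is read from either difference. At 4 of them (pan, Pvr, tkv and MTA1-like) the strongest conservative peak exceeded every one at the 6 genes. The signals were 209.9 at pan (the TCF of Wnt signalling), 190.6 at Pvr (a receptor of the PDGF and VEGF family), 133.9 at tkv and 90.3 at dpp (a receptor and a ligand of bone morphogenetic protein signalling). MTA1-like and Mi-2, both genes of the NuRD complex, had 129.8 and 80.4, the latter 9904 bp upstream of the Mi-2 start.

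Weaker conservative peaks lay at Hml (75.1, a blood cell gene), zfh1 (57.0), tup (56.7, of a LIM homeodomain factor), Bx (55.0) and Doc3 (47.0). The peaks at Hml, MTA1-like, Pvr, pan and tkv were in the thresholded list of each replicate alone. The other 23 partners had none. These included ac and sc, the proneural targets of Pnr, whose strongest ranked peaks had only 29.3 and 26.3, and Chi, the cofactor that joins Pnr to proneural factors, with 53.9. The gene osa, of a subunit of the Brahma chromatin remodelling complex, had a ranked peak of 465.7, at rank 12 of all, that was past the IDR threshold but was one of the 124 peaks absent from the conservative list. With absent peaks counted, 12 of the 34 partners had a peak.

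The genes most like ush in the number of conservative peaks, the number of ranked peaks and the median ranked signal, each as a percentile over 13497 genes, were CG33144, mam and robo2. Each had 2 conservative peaks, and the ranked peaks numbered 79, 89 and 66 with medians of 23.4, 23.8 and 23.4. The gene mam encodes a coactivator of Notch and robo2 a receptor for Slit. The likeness was measured over genes within 1 combined list and not over samples.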

How the data were processed

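Peaks from 2 biological replicates were analysed as 1 group. The lists for 1 replicate rest on that replicate's alignment, and the combined lists on the 2 alignments, per the text files deposited by the authors. The build was dm6, per the labels. The aligner, the peak caller and any control are not stated in these sources. Each peak's signal was deposited by the authors on a scale that is not given, and was used only to describe and rank peaks within a list. The ranked lists hold a global IDR as −log10 values, deposited by the authors and printed here as a rate.

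Ensembl release 115 supplied the genes and RefSeq the dm6 sequence. The main list was the conservative one, which pairs the replicates. Replicate values came from the overlapping peak with the closest summit in each replicate's ranked list, at a minimum overlap of 1 bp. Words were counted on both strands within 50 bp of summits. Of the conservative peaks, 3005 lay on the arms. The assignment of summits was checked at annotated starts and random positions, and the search for GATAA on random sequences with the word planted. Python 3.11.15, numpy 2.4.6, pandas 2.3.3 and scipy 1.17.1 were used. No significance test was run, because the genes had been chosen by these values.

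The genes and the list of 34 partners were chosen with earlier results of these data known. Named are the 6 genes with their conservative peaks and 3 strongest ranked peaks, genes inside or nearer to such a peak, partners with a conservative peak, and the 3 genes most like ush. Peaks near the threshold, ac, sc, Chi, osa, lncRNA genes and the transposable element were named after their values were seen. Results were recomputed with the pooled list, with 1 replicate, and with other assignments and distances, the strongest 50% of peaks, merged peaks and other windows.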

Additional observations from a re-analysis of the deposited data

How the results depend on the processing

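Of 48 alternative values, 20 moved: counts by over 1.5 times, and the rest past the spread between replicates or past the Wilson interval of the reported share. The intervals are wide, so the other 28 include shares that changed by more than 1.5 times: the share passed was 1.92% in the pooled lists, and CANNTG was in 37.5% of windows of 100 bp to each side. With 1 replicate left out, the genes with a peak numbered 3 to 6 (5 reported), their peaks 3 to 7 (8 reported), partners with a peak 6 to 9 (11 reported), the share of ranked peaks that passed 1.22% to 3.5% (3.11% reported), and the median ranked signal 11.9 to 13.6 (21.9 reported), where the medians of those whole lists were 10.6 and 11.9. The low counts were those without replicate 1. With summits inside the gene only, there were 2 genes, 3 peaks, 5 partners and 1.37% passed. Within 500 bp of a start, there were 3 genes with 3 peaks. Among the strongest 50% of peaks, there were 2 genes with 2 peaks, and 5 partners. The pooled list gave 5 peaks, and the cause was not tested. Keeping the highest of overlapping ranked peaks, 208 remained with a median of 23.9. GATAA was in 62.5% of windows of 100 bp to each side (25% reported). CANNTG was in 62.5% and 50% of the flanks (12.5% reported). With the absent ush peak counted, the peaks numbered 9, the genes 5 and, with the osa peak, the partners 12. No paired analysis was possible because there is 1 group. With only 8 conservative peaks at the 6 genes, each share moves by 12.5 percentage points per peak, and the unknown depth limits any statement on srp.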
